A study of Mus musculus with 18 samples.

Results

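The transcripts of 10 cytosolic and mitochondrial heat shock proteins were followed in 18 mouse libraries that trace primordial germ cell-like cells (PGCLCs) from stem cell to culture. The genes, Hspb1, Hspa1a, Hspa1b, Hspa8, Hsp90aa1, Hsp90ab1, Hspd1, Hspe1, Hsph1 and Dnajb1, are 10 of the 34850 listed genes with a value. They were chosen by name with their levels in these libraries already known. The values below therefore describe them, and give no independent support for a pattern among them. Where an adjusted p is given, it says only how a difference compared with the spread between libraries.

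Such cells are made in a dish, first by turning embryonic stem cells (ESCs) into epiblast-like cells (EpiLCs) and then by inducing germline precursors from these. The study asked how cyclosporin A (CsA) and FGF signalling act on them in culture. CsA is an inhibitor of the phosphatase calcineurin. Expression was measured by SC3-seq, which sequences the 3' ends of transcripts after amplification, from 1 ng of RNA per library. Each of the 9 groups had 2 libraries.

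Unsorted ESCs (mESC), grown in 2i and LIF, and unsorted EpiLCs came from C57BL/6 cells that carry the Blimp1-mVenus and Stella-ECFP reporters (BVSC). The EpiLCs were taken at day 2 of induction. PGCLCs at day 4 of induction (d4 PGCLC), labelled with the same strain and reporters, were sorted for mVenus. The d4c7 groups were day-4 PGCLCs that grew on m220-5 feeders for 7 more days before a new mVenus sort. Their strain is given as B6D2F1, with the same reporters, and they were labelled FR10, CsA, FGF10 and FGF2. The E9.5c5 groups were primordial germ cells of embryonic day 9.5 with a Stella-EGFP reporter, of the strain B6D2F1 x C57BL/6. They were kept for 5 days on the same feeders, sorted for EGFP and labelled FR10 and CsA. FR10 names forskolin and rolipram, agents that raise cAMP, which the protocol lists in the medium together with stem cell factor. The labels leave unsaid whether the CsA and FGF cultures held these agents too, at which doses CsA and FGF were used, and whether FGF10 names a factor or an amount. For ESCs, EpiLCs and day-4 PGCLCs nothing says that the libraries came from separate cultures, so their spread may be technical.

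Heat shock proteins are molecular chaperones that bind unfolded or partly folded proteins. Small heat shock proteins such as HSPB1 hold them in solution, and HSP70 proteins fold them in cycles of ATP hydrolysis started by J-domain proteins such as DNAJB1 and reset by HSP110 proteins such as HSPH1. HSP90 acts later, on kinases, hormone receptors and other clients, and HSPD1 and HSPE1 form the folding chamber of the mitochondrial matrix. Under stress the factor HSF1 raises many of these genes by binding inverted repeats of the letters GAA near their starts, while Hspa8 and Hsp90ab1 are known for high levels without stress.

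RefSeq promoter windows (GRCm38.p6, 250 bases before to 50 after a start) were found for 7 of the 10 genes, all but Hspa8, Hsp90aa1 and Hsp90ab1. Both orders of the inverted pair, GAANNTTC and TTCNNGAA, were searched, and each reads the same on both strands. The first was in 7.86% and the second in 8.52% of all 32851 windows, and 15.1% held at least 1 of them. Of the 7 genes, 6 held at least 1 in a window and Dnajb1 held none. The pairs share units where they overlap, so 3 alternating units also make 1 of each order. Such a run was in 0.603% of all windows, among them the window of Hspe1, both windows of Hsph1 and 1 of the 2 windows of Hspd1, whose other window held no pair. A match describes the letters and is not a shown site of binding. The 4 stretches below are given because they belong to the member whose level varied most (Hspb1), to the inducible HSP70 pair that was near 0 (Hspa1a and Hspa1b), and to the head-to-head mitochondrial pair. Capitals mark the matches.
Hspb1, chr5:135887782-135887849, plus strand: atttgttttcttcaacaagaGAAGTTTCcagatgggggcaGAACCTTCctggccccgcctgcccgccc
Hspa1b, chr17:34959315-34959362, minus strand: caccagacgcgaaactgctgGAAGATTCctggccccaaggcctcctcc
Hspa1a, chr17:34972233-34972280, minus strand: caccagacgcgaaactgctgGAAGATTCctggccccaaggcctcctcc
Hspe1 and Hspd1, chr1:55088053-55088082, plus strand: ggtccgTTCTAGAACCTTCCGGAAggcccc
The stretches of Hspb1, Hspa1b and Hspa1a lie upstream of their genes and touch no exon in the GENCODE M21 annotation. The stretch of Hspe1 lies 95 to 66 bases before the Hspe1 start, and inside a 5' untranslated exon of a Hspd1 transcript on the opposite strand. The windows of Hspa1a and Hspa1b differed at 3 of the 250 bases before the start.

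The libraries held 2127660 to 7541436 reads, as inferred from the step between low values. At these depths 3 reads came to 0.397 to 1.41 RPM, the deposited unit, in which reads are scaled to a common library total. RPM from transcript ends does not grow with transcript length, so length does not set levels of different genes apart. Amplification and counting may still do so, and their part in levels and ratios between genes was not tested. In 6 groups the 2 libraries differed by a median of 0.193 to 0.290 on the log2 scale over all tested genes. The medians were wider in E9.5c5 CsA (0.601), d4c7 FGF2 (0.468) and E9.5c5 FR10 (0.426). At equal depth, replicate 2 of these groups held the fewest genes (12053, 12267 and 12647 in the same order), against 13063 to 14002 in the other 15 libraries. For members, the value without these 3 libraries is added below where a stated fold change changed its call or moved by over 1.5 times. It is also added where the limit of a range moved by over 1.5 times. Other members called only without these libraries are counted below and not named. The germ cell marker list summed to 887 to 4089 RPM over its 7 genes in the germ cell groups. It summed to 298 to 342 RPM in ESCs and to 38.1 to 51.1 RPM in EpiLCs. The naive ESC list (5 genes) summed to 1625 to 1642 RPM in ESCs, and still to 635 to 1054 RPM in the germ cell groups. The EpiLC list (4 genes) summed to 1642 to 1657 RPM in EpiLCs. No germ cell marker was at 0 in both libraries of a group.

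Hspb1 (NCBI gene 15507, chr5:135887919-135889563), the small heat shock protein also called HSP25 in mouse, varied most. It was measured at 289.9 and 287 RPM in ESCs, 28.0 and 41.4 in EpiLCs, and 58.7 and 59.1 in day-4 PGCLCs. In cultured PGCLCs it was at 97.2 and 191 RPM with FR10, 421 and 488 with CsA, 267 and 383 with FGF10, and 540.4 and 1058 with FGF2. In cultured embryo germ cells it was at 163 and 359 RPM with FR10 and at 474 and 769 with CsA. From the lowest library, EpiLC replicate 1, to the highest, d4c7 FGF2 replicate 2, the range was 37.8-fold. The range was 19.3-fold without the 3 less repeatable libraries, where d4c7 FGF2 replicate 1 was highest. By mean the order was d4c7 FGF2, E9.5c5 CsA, d4c7 CsA, d4c7 FGF10, ESCs, E9.5c5 FR10, d4c7 FR10, day-4 PGCLCs and EpiLCs. Neighbours in this order overlapped in range, apart from d4c7 CsA against d4c7 FGF10, d4c7 FR10 against day-4 PGCLCs, and day-4 PGCLCs against EpiLCs.

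**Figure D1:**
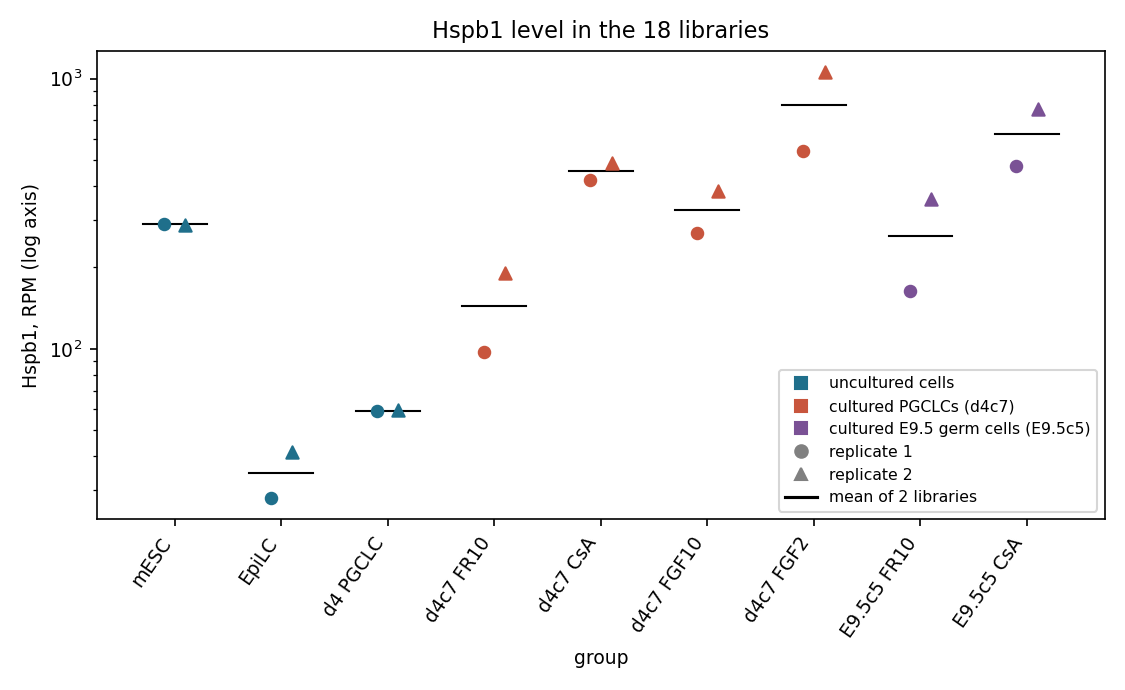
Hspb1 in RPM (log axis) in each of the 18 libraries, by group. Circles are replicate 1, triangles replicate 2 and lines the mean of the 2 libraries. EpiLCs and day-4 PGCLCs were lowest, between 28.0 and 59.1 RPM, and the 2 d4c7 FGF2 libraries were at 540.4 and 1058 RPM.

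Hspa8 (gene 15481, chr9:40801276-40805202), the constitutive cytosolic HSP70, was one of the most abundant members and varied little. Its level was 3975 and 3819 RPM in ESCs, 2983 and 2649.5 in EpiLCs, and 4184 and 3512 in day-4 PGCLCs. Cultured PGCLCs had 4477 and 4548 RPM with FR10, 3810.3 and 3682 with CsA, 4472 and 4948 with FGF10, and 4555 and 3342 with FGF2. Cultured embryo germ cells had 3997 and 3063 RPM with FR10 and 4101 and 2661 with CsA. The highest library was 1.87-fold above the lowest, and in the order of means every group overlapped in range with the next. No comparison passed the test for Hspa8.

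The stress-inducible HSP70 genes Hspa1a (gene 193740, chr17:34969359-34972156) and Hspa1b (gene 15511, chr17:34956429-34959238) were at the detection limit. Hspa1a was listed at 0 in 14 libraries, among them all 12 cultured ones, and reached at most 1.52 RPM, or 8 reads, in EpiLC replicate 1. Over the 18 libraries it had 13 reads in all. Hspa1b was listed at 0 in 9 libraries, reached at most 1.48 RPM in d4c7 FGF10 replicate 1, and had 28 reads in all. Only 1 library for Hspa1a and 3 for Hspa1b had more than 3 reads. Neither gene passed the filter on low values, so neither was tested in the main fit, and no fold change is given. Both encode nearly the same protein, but the last 300 bases of their longest GENCODE transcripts were only 50.1% identical in an alignment, against 84.3% for the whole transcripts. Whether the authors' counting split or dropped reads of this pair was not tested.

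Of the HSP70 partners, Hsph1 (gene 15505, chr5:149616843-149636498), the HSP110 exchange factor, was highest in day-4 PGCLCs. It was at 191 and 176 RPM in ESCs, 119 and 127 in EpiLCs, and 273 and 274 in day-4 PGCLCs. Cultured PGCLCs had 211 and 151 RPM with FR10, 173 and 159 with CsA, 211 and 203 with FGF10, and 157 and 103 with FGF2. In cultured embryo germ cells it had 180.3 and 143 RPM with FR10 and 167 and 107 with CsA. Both day-4 libraries lay above all 16 others, as they did for 16.1% of all 9561 tested genes, and the d4c7 FGF10 libraries lay above those of ESCs, the next group in the order of means. All later neighbours overlapped, down to d4c7 FGF2 and EpiLCs.

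Dnajb1 (gene 81489, chr8:83608175-83612653), the J-domain partner of cytosolic HSP70, had low values in ESCs and EpiLCs. They were 62.5 and 64.0 RPM in ESCs and 62.9 and 36.8 in EpiLCs, against 132 and 138 in day-4 PGCLCs. Cultured PGCLCs had 188 and 124 RPM with FR10, 121 and 117 with CsA, 137 and 111 with FGF10, and 95.1 and 50.3 with FGF2. In the E9.5c5 groups Dnajb1 had 129 and 67.1 RPM with FR10 and 129 and 31.5 with CsA. Every group overlapped in range with the next in the order of means, and the widest gap between replicates of any member was the one in E9.5c5 CsA.

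The cytosolic HSP90 genes differed from each other in pattern. Hsp90aa1 (gene 15519, chr12:110691036-110696395), known as the stress-responsive form, was highest in ESCs at 6141 and 6007 RPM, above all 16 other libraries, as for 6.96% of all tested genes. EpiLCs had 3930.4 and 4003 RPM and day-4 PGCLCs 3901 and 4104. Cultured PGCLCs had 5385 and 4538 RPM with FR10, 3819 and 3991 with CsA, 4456 and 4997 with FGF10, and 4308 and 4071 with FGF2. The E9.5c5 groups had 4667 and 4756 RPM with FR10 and 4342 and 4549 with CsA. Outside ESCs all libraries lay between 3819 and 5385 RPM.

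Hsp90ab1 (gene 15516, chr17:45567778-45573261), the constitutive form, was high in all 3 uncultured groups. It was at 3272 and 3192 RPM in ESCs, 3141 and 2953 in EpiLCs, and 2991 and 3176 in day-4 PGCLCs. Cultured PGCLCs had 1885 and 2292 RPM with FR10, 1659 and 1741 with CsA, 2149 and 2677 with FGF10, and 1981 and 1849 with FGF2. Cultured embryo germ cells had 2082 and 1392 RPM with FR10 and 2200.25 and 1565 with CsA. The 6 uncultured libraries spanned 2953 to 3272 RPM and the 12 cultured ones 1392 to 2677 RPM, with no overlap, while the cultured groups overlapped with their neighbours in the order of means. The ratio of Hsp90aa1 to Hsp90ab1 was accordingly 1.25 to 1.88 in uncultured and 1.87 to 3.42 in cultured libraries, ranges that met at their ends.

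Hspd1 (gene 15510, chr1:55077833-55088243), the mitochondrial chaperonin HSP60, showed the same division. It was at 998 and 993 RPM in ESCs, 1022 and 1063 in EpiLCs, and 978 and 1010.05 in day-4 PGCLCs. Cultured PGCLCs had 565 and 612 RPM with FR10, 596 and 612 with CsA, 589 and 719 with FGF10, and 618 and 488 with FGF2. The E9.5c5 groups had 580.1 and 447 RPM with FR10 and 650.2 and 379.9 with CsA. Uncultured libraries lay between 978 and 1063 RPM and cultured ones between 379.9 and 719 RPM, or between 565 and 719 RPM without the 3 less repeatable libraries.

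Its co-chaperonin Hspe1 (gene 15528, chr1:55088148-55091317), HSP10, starts beside it on the opposite strand but did not share the division. Hspe1 was at 1549 and 1576 RPM in ESCs, 2035 and 2252 in EpiLCs, and 1136 and 1265 in day-4 PGCLCs. Cultured PGCLCs had 996 and 1162 RPM with FR10, 1580.15 and 1479 with CsA, 1353 and 1211 with FGF10, and 1324 and 1441 with FGF2. Cultured embryo germ cells had 1633 and 1416 RPM with FR10 and 1649.8 and 2023 with CsA. EpiLCs were above all other groups and d4c7 FR10 had the lowest mean, overlapping with day-4 PGCLCs. The ratio of Hspe1 to Hspd1 ran from 1.16 to 2.12 in uncultured and from 1.68 to 5.33 in cultured libraries. The highest ratio was that of E9.5c5 CsA replicate 2, and without the 3 less repeatable libraries the cultured ones reached 2.81. Across the 9 group means Hspd1 correlated with Hspe1 at r = 0.17 and with Hsp90ab1 at r = 0.95 (Pearson, on log2(RPM + 1)). These points share their libraries, and the values are descriptions. RefSeq names pseudogene copies of Hspe1, Hspd1 and Hspb1. They were not analysed here, and reads from near-identical copies could not be told apart.

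**Figure D2:**
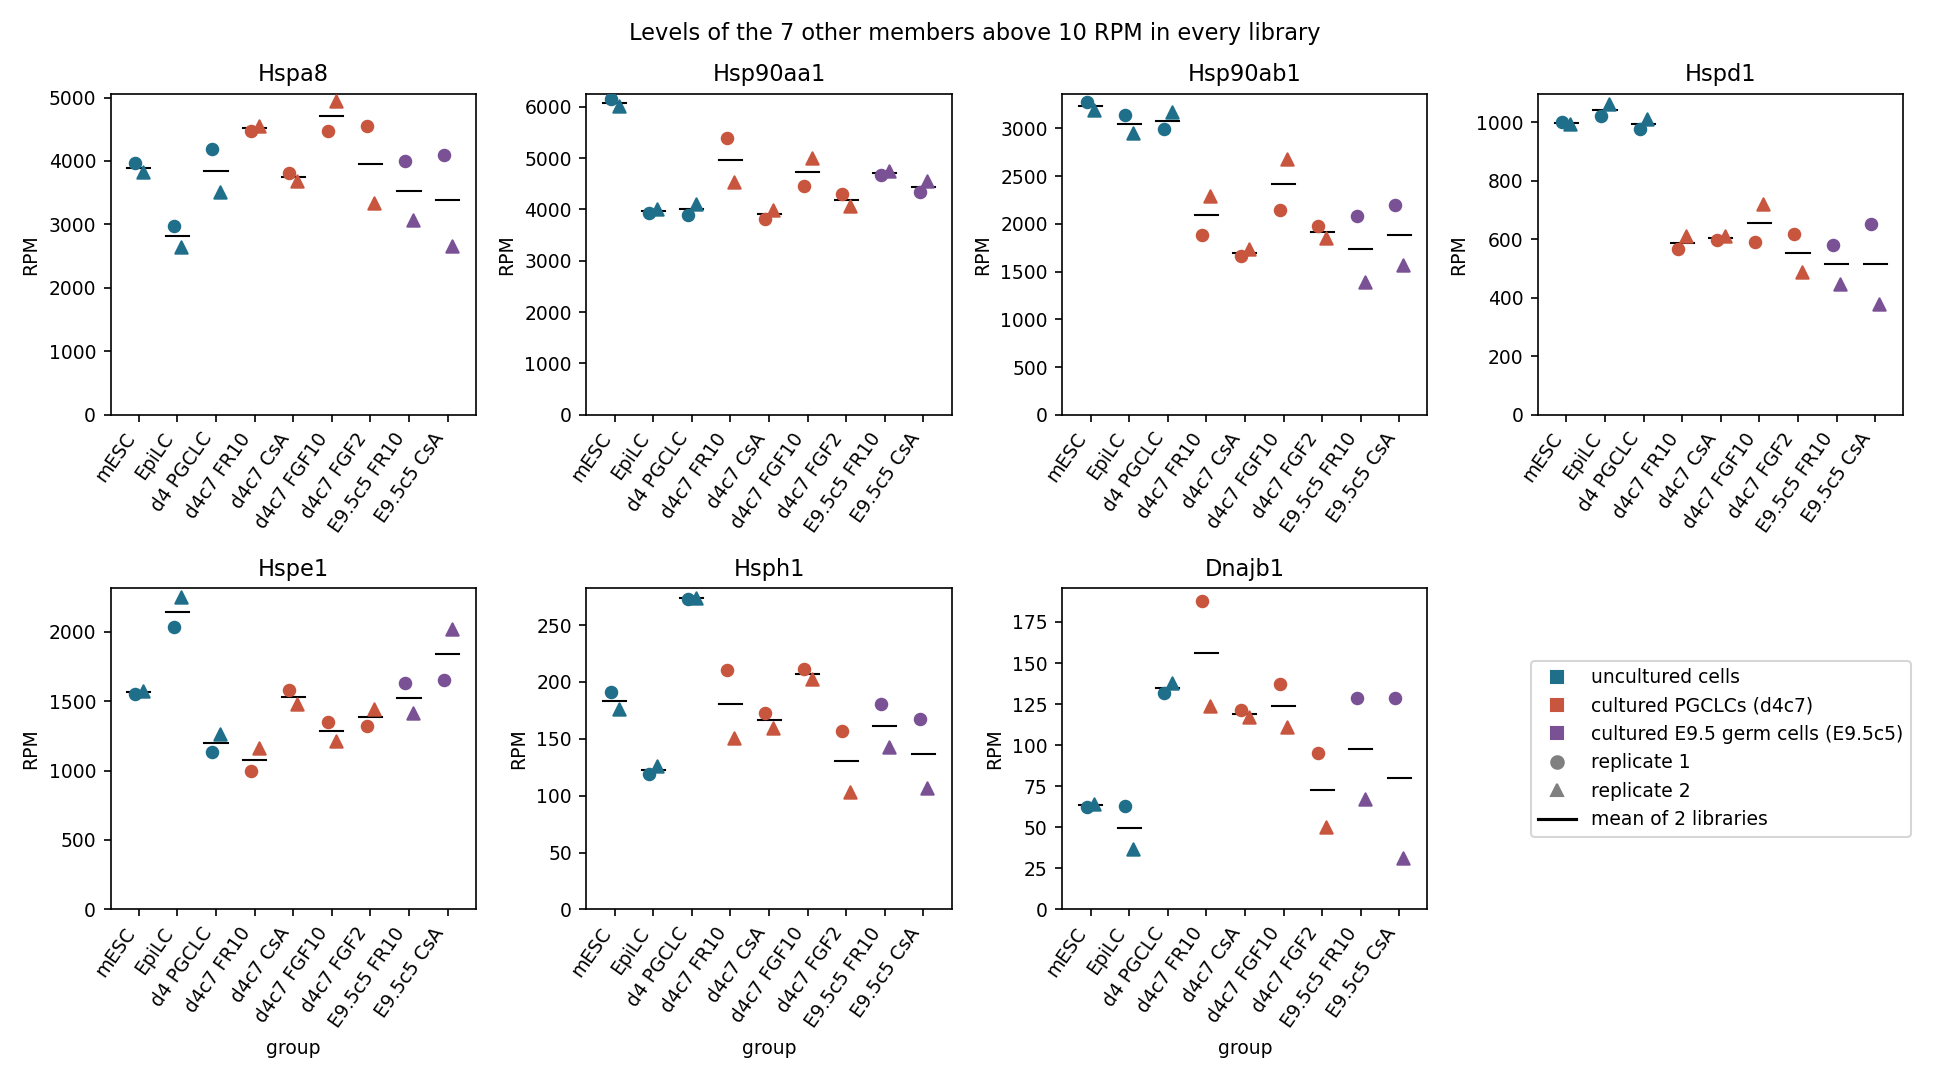
RPM of Hspa8, Hsp90aa1, Hsp90ab1, Hspd1, Hspe1, Hsph1 and Dnajb1 in each of the 18 libraries, each panel with its own axis from 0. Circles are replicate 1, triangles replicate 2 and lines the mean of the 2 libraries. Hsp90ab1 and Hspd1 were lower in all 12 cultured than in all 6 uncultured libraries, and Hspe1 was not.

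The division between cultured and uncultured libraries was noticed in these values. Hsp90ab1 and Hspd1 were 2 of the 8 tested members. Over all 9561 tested genes, 4.61% were lower and 3.82% higher in every cultured than in every uncultured library. After scaling to median-ratio size factors the division held for both genes, with 1392 to 2408 against 2478 to 3402 for Hsp90ab1 and 447 to 647 against 810.2 to 1128 for Hspd1, and 4.71% of all genes were lower. Culture, feeder cells, strain and, for the embryo cells, origin change together here and cannot be told apart. Markers of feeder cells and fibroblasts, 14 genes, summed to 5.18 to 86.7 RPM in the uncultured and to 16.6 to 257 RPM in the cultured libraries. Lum was at 0 in both libraries of every group, the uncultured ones included, and Thy1 in both libraries of every cultured group. In d4c7 FR10, d4c7 FGF10 and E9.5c5 FR10 no other marker of the list was at 0 in both libraries. The part of feeder RNA in these levels was not tested.

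The steps of the induction were compared with limma on log2(RPM + 1) over all 9561 genes with 10 RPM or more in any 2 libraries. The 8 members other than Hspa1a and Hspa1b were tested, each with 10 RPM or more in all 18 libraries. A gene was called at an adjusted p under 0.05 (Benjamini-Hochberg over all tested genes), and a fold change carries its standard error. From ESCs to EpiLCs, 2 of the 8 members were called, both lower, where 7.09% of all tested genes were called higher and 8.86% lower. Hspb1 fell by 3.05 ± 0.39 on the log2 scale, an 8.26-fold difference (adjusted p = 2.91e-05). Hsp90aa1 fell by 0.61 ± 0.15 (adjusted p = 0.00813). The call for Hsp90aa1 was lost when any 1 of the 4 libraries was left out, with adjusted p-values of 0.0592 to 0.0758. With the 3 less repeatable libraries left out, 5 members were called, and 29.7% of all genes in either direction.

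From EpiLCs to day-4 PGCLCs, 3 of the 8 members were called, 2 higher and 1 lower. The EpiLCs were unsorted and the day-4 PGCLCs sorted for mVenus, so induction and sorting cannot be told apart here. Of all tested genes 27.5% were called higher and 12.1% lower, with a median change of 0.34. Under median-ratio scaling, which sets the median of all genes near 0, the split turned to 17.4% higher and 19.0% lower. Dnajb1 rose by 1.47 ± 0.48 (adjusted p = 0.0224) and Hsph1 by 1.15 ± 0.24 (adjusted p = 0.00121), the J-domain and HSP110 partners of HSP70, whose own gene Hspa8 was not called. Hspe1 fell by 0.84 ± 0.16 (adjusted p = 0.000566). Under median-ratio scaling these 3 changes were 1.11 for Dnajb1, 0.79 for Hsph1 and -1.20 for Hspe1, all called. The call for Dnajb1 was lost without EpiLC replicate 2 (1.09, adjusted p = 0.193), without d4 PGCLC replicate 1 (adjusted p = 0.0897) and without d4 PGCLC replicate 2 (adjusted p = 0.0935). It was also lost with no filter on low values (adjusted p = 0.0733). That setting let Hspa1a and Hspa1b, with at most 8 reads in any library, into the fit. There 1 member was called higher and 2 lower. Hspe1 was 1 of the lower, and of the other tested members only Hspd1 fell (-0.07). The second lower call was thus of the pair at the detection limit. Omission of the 3 less repeatable libraries gave 5 called members, and 55.8% of all genes called.

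From day-4 PGCLCs to PGCLCs cultured with FR10, 2 of the 8 members were called, 1 higher and 1 lower, where 7.01% of all tested genes were called higher and 8.22% lower. Hspb1 rose by 1.20 ± 0.39 (adjusted p = 0.0452) and Hspd1 fell by 0.76 ± 0.21 (adjusted p = 0.0243). Both calls depended on single libraries and on the settings. The Hspd1 call was lost without d4 PGCLC replicate 1 or 2 (adjusted p = 0.111 and 0.124) and without d4c7 FR10 replicate 1 or 2 (0.133 and 0.0944). The Hspb1 call was lost without d4 PGCLC replicate 1 or 2 (0.187 and 0.168), and without d4c7 FR10 replicate 2 its change was 0.71 (0.425). With no filter on low values neither was called, with adjusted p-values of 0.132 for Hspb1 and 0.0617 for Hspd1. Hspb1 was also not called at a pseudocount of 0.1 RPM (adjusted p = 0.0586) or by voom in limma on the inferred reads (adjusted p = 0.0839). Without the 3 less repeatable libraries, none of which belongs to these groups, 5 members were called, and 31.2% of all genes. The summed feeder markers were 8.92 and 19.7 RPM in day-4 PGCLCs and 231 and 192 RPM with FR10, and their part in these changes was not tested. Culture, feeder cells and the strain label change together at this step and cannot be told apart.

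In cultured PGCLCs, CsA was compared with FR10, and no member was called. At an unadjusted p under 0.05, 3 of the 8 members were counted beside 13.8% of all tested genes, and voom also called 0 members. Of all tested genes 0.0209% were called higher and 0.0105% lower, or 2 and 1 genes, against 8 and 1 under median-ratio scaling. The members with the smallest p were Hspb1, with a difference of 1.73 ± 0.39 (adjusted p = 0.103), and Hspe1, with 0.51 ± 0.16 (adjusted p = 0.191). Both CsA libraries lay above both FR10 libraries for these 2 genes, and below them for Hspa8, Hsp90aa1, Hsp90ab1 and Dnajb1. Of all tested genes 11.4% lay above and 41.6% below in this way. The call depended on the settings and on which libraries estimated the spread. With a replicate block Hspb1 was called (limma adjusted p = 0.0147), as were 0.0523% of all tested genes. Array weights called Hspb1 (adjusted p = 0.0024) and Hspe1 (adjusted p = 0.0305), and 4.96% of all tested genes. Without the 3 less repeatable libraries, none of which is in this comparison, 172 genes were called higher and 796 lower, 10.3% in all, and both Hspb1 (adjusted p = 0.000529) and Hspe1 (adjusted p = 0.0105) were among them. The median of all tested genes was -0.24 here, and under median-ratio scaling the differences were 1.95 for Hspb1 and 0.74 for Hspe1, neither called. Summed feeder markers were lower with CsA, at 156 and 35.1 RPM against 231 and 192 RPM.

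FGF10 against FR10 gave no called member and no called gene at all, so that 0% of tested genes were called in either direction. At an unadjusted p under 0.05 there were 1 member and 477 genes (4.99%), and voom called 0 members. Hspb1 differed by 1.23 ± 0.39 (adjusted p = 0.805) and Hspe1 by 0.25 ± 0.16 (adjusted p = 0.979). For both genes the 2 FGF10 libraries lay above the 2 FR10 libraries, as for 15.1% of all tested genes, and no member lay below, where 25% of all genes did. Without d4c7 FR10 replicate 1 the differences were 0.74 for Hspb1 and 0.14 for Hspe1. Hspb1 was called here without the 3 less repeatable libraries (adjusted p = 0.0306), as were 0.435% of all genes.

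FGF2 against FR10 gave 1 called member of 8, Hspb1, which rose by 2.46 ± 0.39, a 5.51-fold difference (adjusted p = 0.00499). Of all tested genes 1.37% were called higher and 7.47% lower, with a median of -0.33. Under median-ratio scaling 3.06% were called higher and 2.73% lower, and the difference in Hspb1 was 2.77. Without d4c7 FR10 replicate 1 the difference was 1.98 and was not called (adjusted p = 0.131). Without the 3 less repeatable libraries it was also 1.98, with 1 FGF2 library, and called (adjusted p = 0.000592), as were 11.6% of all genes. Dnajb1 had the next smallest p, with a difference of -1.13 ± 0.48 (adjusted p = 0.133). Without d4c7 FGF2 replicate 1 it was -1.58, and without the 3 less repeatable libraries, replicate 2 among them, it was -0.68. The other 6 tested members had no call. Both FGF2 libraries lay above both FR10 libraries for Hspb1 and Hspe1 and below them for Hsp90aa1 and Dnajb1, as for 15.2% and 43.2% of all tested genes, and the other 4 overlapped in range. Summed feeder markers were 81.4 and 34.0 RPM with FGF2, below both FR10 libraries. The summed germ cell markers were also lower, at 887 and 1095 RPM against 2017 and 2055 RPM.

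In cultured embryo germ cells, CsA against FR10 gave no called member, and 0% of tested genes were called higher or lower. At an unadjusted p under 0.05 there were 1 member and 703 genes (7.35%), and voom called 0 members. Hspb1 differed by 1.31 ± 0.39 (adjusted p = 0.522) and Hspe1 by 0.26 ± 0.16 (adjusted p = 0.736), with both CsA libraries above both FR10 libraries for each gene. For Hsp90aa1 both lay below, and of all tested genes 8.61% lay above and 16.8% below in this way. Without E9.5c5 CsA replicate 1, which left only the less repeatable replicate 2 with CsA, the difference in Hspb1 was 1.66. With E9.5c5 CsA replicate 2 omitted it was 0.97, and with E9.5c5 FR10 replicate 1 or 2 omitted 0.75 or 1.88. Single omissions gave 0.12 to 0.41 for Hspe1. Each E9.5c5 group holds a less repeatable library, and without the 3 such libraries 0 members and 0.0954% of all genes were called, with 1.53 for Hspb1 (adjusted p = 0.111) and 0.02 for Hspe1 (adjusted p = 0.999). The effect of CsA in embryo cells minus that in PGCLCs was also fitted, and no member was called, or had an unadjusted p under 0.05. For Hspb1, named here after its values were seen, it was -0.41 ± 0.55 (adjusted p = 0.956), and -0.19 without the 3 libraries. The smallest p-values belonged to Hsp90ab1 and Hsp90aa1, with 0.41 ± 0.29 (adjusted p = 0.869) and 0.26 ± 0.21 (adjusted p = 0.909). Leaving out single libraries gave 0.12 to 0.71 for Hsp90ab1. With these errors a difference of the effects in Hspb1 could not be resolved.

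Embryo germ cells and PGCLCs, both cultured with FR10, gave no called member. Of all tested genes 0.0314% were called higher and 0.0105% lower in the embryo cells. At an unadjusted p under 0.05 there were 2 members beside 14.9% of all tested genes, and voom called 0 members. Hspe1 was 0.50 ± 0.16 higher in mean log2 value (adjusted p = 0.202) and Hspb1 0.82 ± 0.39 (adjusted p = 0.332). Without the 3 less repeatable libraries these values were 0.60 and 0.26, and 0 members and 0.329% of all genes were called. For Hspb1 single omissions gave 0.26 to 1.39. Strain, reporter, origin and days in culture all differ between these groups and cannot be told apart.

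As a list, the 8 tested members had a median change of -0.43 from ESCs to EpiLCs, 0.23 to day-4 PGCLCs and 0.01 to culture with FR10. The medians of all tested genes were 0.01, 0.34 and -0.07. Against FR10 the members' medians were -0.19 with CsA, 0.18 with FGF10 and -0.16 with FGF2 in PGCLCs, and -0.06 with CsA in embryo cells. Those of all genes were -0.24, -0.08, -0.33 and -0.11. Embryo cells against PGCLCs gave -0.18 for the members and -0.20 for all genes.

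**Figure D3:**
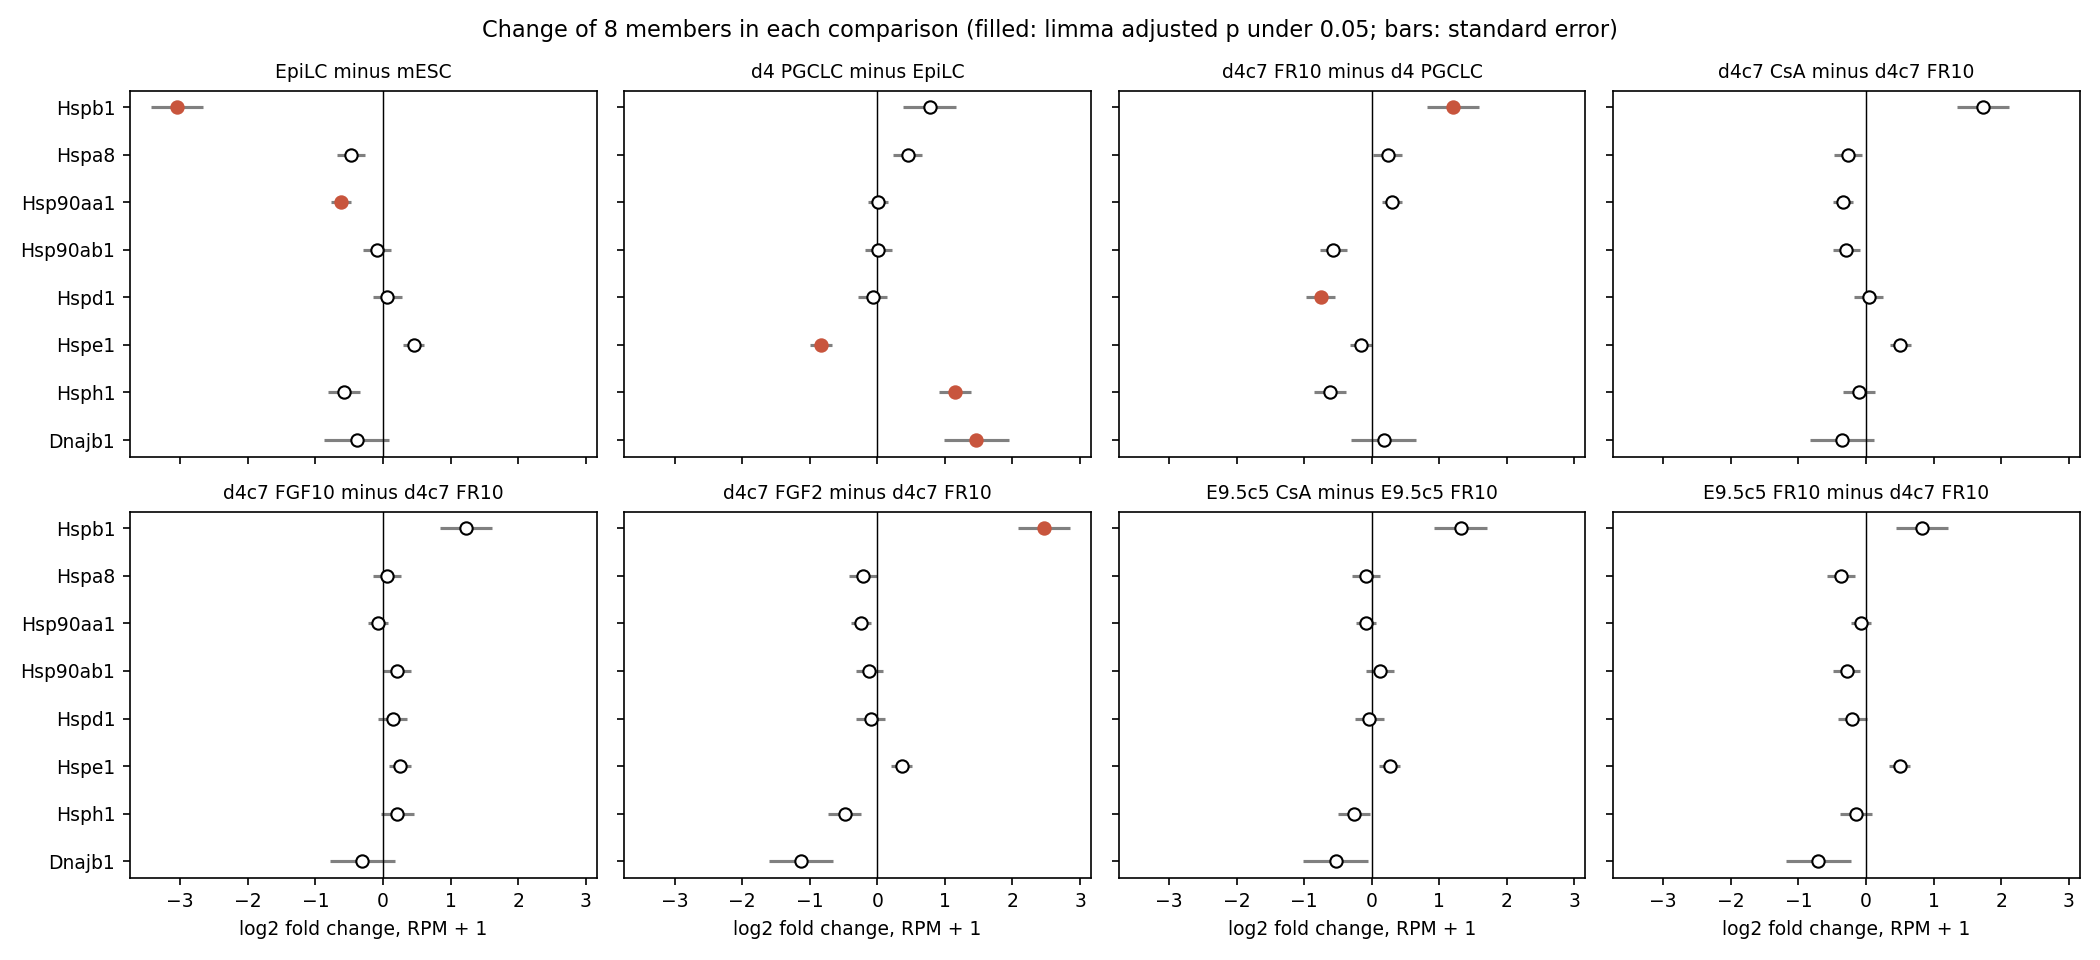
Log2 fold change of RPM + 1 for the 8 tested members (rows) in the 8 comparisons (panels), with the standard error as a bar. Filled points have a limma adjusted p under 0.05 over all 9561 tested genes. Hspb1 lay at -3.05 from ESCs to EpiLCs and at 2.46 with FGF2, the widest of the plotted changes.

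Between the replicates of the less repeatable groups the members differed in both directions. In replicate 2 minus replicate 1, Hspb1 was higher on the log2 scale by 1.14 in E9.5c5 FR10, 0.97 in d4c7 FGF2 and 0.70 in E9.5c5 CsA. Dnajb1 gave -0.93, -0.91 and -2.00 in the same groups, and Hsph1 -0.33, -0.60 and -0.65. Hspa8 (-0.38, -0.45 and -0.62) and Hspd1 (-0.38, -0.34 and -0.77) were also lower in replicate 2. Hsp90ab1 gave -0.58, -0.10 and -0.49, Hsp90aa1 0.03, -0.08 and 0.07, and Hspe1 -0.20, 0.12 and 0.29. In d4c7 FR10, which was repeatable over all genes, Hspb1 still differed by 0.97 and Dnajb1 by -0.60. Hspb1 was also higher in replicate 2 of EpiLCs (0.55), d4c7 FGF10 (0.52) and d4c7 CsA (0.21). In ESCs (-0.01) and day-4 PGCLCs (0.01) its replicates were nearly equal. The median of all tested genes was -0.07, -0.14 and -0.32 in the 3 less repeatable groups. Replicate 2 there also held the fewest genes at equal depth, and the part of library quality in these levels was not tested.

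**Figure D4:**
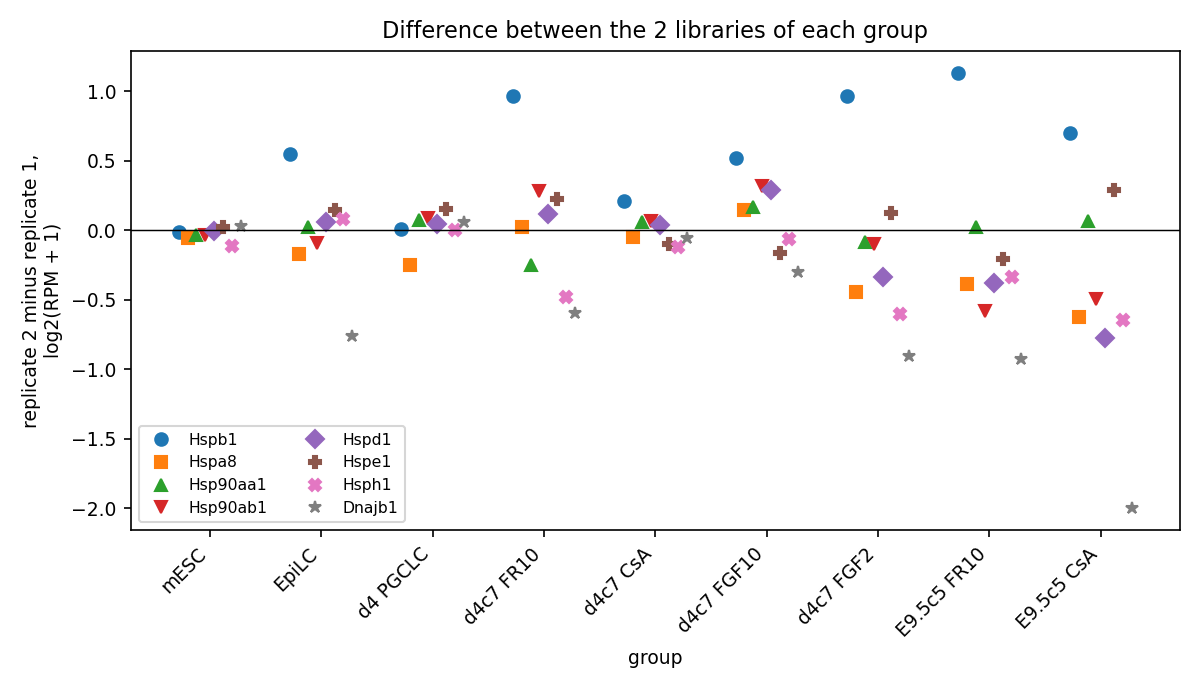
Difference between replicate 2 and replicate 1, log2(RPM + 1), for the 8 tested members in each of the 9 groups. In the E9.5c5 groups and in d4c7 FGF2, Hspb1 lay between 0.70 and 1.14 and Dnajb1 between -2.00 and -0.91.

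The chaperones of the endoplasmic reticulum, which belong to a separate stress response, were read as comparators. Hsp90b1, the HSP90 of this compartment, was at 451 and 414 RPM with FR10 and at 848 and 918 with CsA in cultured PGCLCs. It rose by 1.03 ± 0.16 (adjusted p = 0.0376), the only comparator called there. In embryo cells it went from 369.9 and 364 RPM to 826 and 723, a difference of 1.07 ± 0.16 (adjusted p = 0.0524). Hspa5, the HSP70 of the compartment, was at 257 and 288 RPM with FR10 and 659.8 and 697 with CsA in PGCLCs, a difference of 1.31 ± 0.31 (adjusted p = 0.113). Set beside them after the values were seen, the cytosolic counterparts with CsA had differences of -0.34 ± 0.15 for Hsp90aa1, -0.29 ± 0.20 for Hsp90ab1 and -0.27 ± 0.21 for Hspa8. These were not called, and lay beside a median of -0.24 over all tested genes, or -0.02 under median-ratio scaling. Whether the cytosolic differences differ from the changes of Hsp90b1 and Hspa5 was not tested. With FGF2, Hspa5 fell by 1.08 ± 0.31 (adjusted p = 0.043) and Hsp90b1 by 0.54 ± 0.16 (adjusted p = 0.0498). Over all tested genes the median was -0.33 there, and 7.47% were called lower. Under median-ratio scaling that median was -0.02. The differences of Hspa5 and Hsp90b1 were -0.88 and -0.36 without the 3 less repeatable libraries. Hsf1, the heat shock factor, was between 8.51 and 38.8 RPM and Hsf2 between 3.42 and 23.6 RPM, and neither was called in any comparison.

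A list of 70 other chaperone genes, 61 of them tested, was read in the same fit. From ESCs to EpiLCs 3 were called higher and 3 lower, beside 7.09% and 8.86% of all tested genes. Hspb8, a small heat shock protein, fell by 2.72 ± 0.47, and Hscb, a mitochondrial J-domain protein of iron-sulfur cluster assembly, by 1.22 ± 0.28. Hspa4l, an HSP110 relative, rose by 3.17 ± 0.60, from a mean of 1.35 RPM to a mean of 17.5 RPM. Pfdn4, a prefoldin subunit, rose by 0.94 ± 0.21. The list's median change was 0.10. From EpiLCs to day-4 PGCLCs 18 were called higher and 8 lower, beside 27.5% and 12.1% of all tested genes. The list's median was 0.21 beside 0.34 for all genes. Median-ratio scaling turned the split of the list to 8 higher and 13 lower, beside 17.4% and 19.0% of all genes. Stip1, the adaptor between HSP70 and HSP90, rose by 1.19 ± 0.19 and Hscb by 1.56 ± 0.28, while Dnajc19 of the mitochondrial import motor fell by 1.01 ± 0.18. Hspb8 was listed at 0 in both day-4 libraries, against a mean of 11.1 RPM in EpiLCs.

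From day-4 PGCLCs to culture with FR10, 4 of the 61 were called higher and 3 lower, beside 7.01% and 8.22% of all genes. The list's median was -0.03 beside -0.07 over all genes. Bag1, an HSP70 exchange factor, rose by 1.54 ± 0.26 and Clpb, a mitochondrial disaggregase, by 1.18 ± 0.21. Cct8, a subunit of the cytosolic chaperonin TRiC, fell by 0.75 ± 0.19 and Dnaja3, a mitochondrial J-domain protein, by 0.79 ± 0.22. With FGF2 the list's median was -0.05 beside -0.33, and 0 were called higher and 4 lower, beside 1.37% and 7.47% of all genes. Among the 4 lower ones the TRiC subunit Cct6a fell by 2.95 ± 0.72, from a mean of 26.0 RPM to a mean of 2.25 RPM. The other lower ones were Pfdn4 (-1.23 ± 0.21), Hspa14 (-1.50 ± 0.42) and the HSP70 partner Dnaja1 (-0.64 ± 0.19). Median-ratio scaling changed this split to 5 higher and 2 lower, and without d4c7 FR10 replicate 1 none was called. Omitting the 3 less repeatable libraries gave 3 higher and 7 lower, beside 1.87% and 9.75% of all genes.

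In the other 4 comparisons none of the 61 was called by limma or by voom. At an unadjusted p under 0.05 there were 9 for CsA in PGCLCs, 2 for FGF10, 5 for CsA in embryo cells and 13 for embryo cells against PGCLCs. The shares of all tested genes were 13.8%, 4.99%, 7.35% and 14.9% in the same order. The genes with the smallest p were Cct4 with CsA in PGCLCs (-0.50, adjusted p = 0.165) and Tomm34, an HSP90 partner, with FGF10 (0.60, adjusted p = 0.878). They were Clpx, a mitochondrial unfoldase, with CsA in embryo cells (-0.74, adjusted p = 0.547) and again Tomm34 in embryo cells against PGCLCs (0.80, adjusted p = 0.156). Without the 3 less repeatable libraries 12 of the list were called with CsA in PGCLCs, beside 10.3% of all genes.

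The tested genes whose 9 group means of log2(RPM + 1) were most like those of each member were also read, as Pearson's r over groups that share libraries. For Hspb1 they were Aifm2 (r = 0.95) and Tmem192 (0.94). Hspd1 was most like Unc5b (0.99) and Eif5a (0.98), and Hsp90ab1 most like Hnrnpf (0.97) and Rraga (0.96). Hspa8 was most like Snx6 and Dhx35 (both 0.97), and Hsp90aa1 most like Zbtb38 (0.90) and Wdr5 (0.89). Hspe1 was most like Rps27 and H13 (both 0.93), Hsph1 most like Rab7 (0.98) and Sept2 (0.97), and Dnajb1 most like Tax1bp1 and Rad21 (both 0.98). Among the members themselves, Hspa8 and Hspe1 gave r = -0.88. As a share of the library, the 10 members together made up 1.16% to 1.65% of all RPM.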

How the data were processed

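The values were deposited by the authors as RPM, reads scaled to a common library total, 1 value per gene and library; file naming and totals gave the unit. Cutadapt 1.3, TopHat 1.4.1, Cufflinks 2.2.0 and the build mm10 are listed in the submitters' processing notes with no role for each; the annotation and counting settings are not stated there. RPM is a share of the library, so a rise of abundant genes lowers the rest. Depth was inferred from the step between low values: 99.6% to 99.8% of low values were whole multiples within 0.02 read. Values far below the step remained, so no count model was the main test. A count of 0 allows up to 3 reads. Such limits cover counting error only: the reads were amplified and carry no molecular identifier.

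Members and lists were chosen with earlier results of these data known. Values were taken as log2(RPM + 1), on which a fold change understates that of low genes. limma 3.58.1 in R 4.3.3 fitted 1 mean per group to all 18 libraries with a variance trend (9 residual degrees of freedom). The fit was tested on simulated data. Log2 fold changes are given for called members or, with under 2 called, for the 2 with the smallest p. Of the chaperone list up to 4 called genes by smallest p are named, or else the first, and per member the 2 genes of highest correlation. Hspa5, Hsp90b1, Hsf1 and Hsf2 were comparators. Markers for naive ESCs and EpiLCs were read only as checks of the labels. The fit was repeated with pseudocounts of 0.1 and 10 RPM, with no filter, a filter at 50 RPM, median-ratio scaling, a replicate block, the 12 cultured libraries alone, array weights and each library left out. After the data were seen, voom on inferred reads, the omission of the 3 less repeatable libraries and the ranges of cultured and uncultured libraries were added. Motifs were searched with Python 3.11.15.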

Additional observations from a re-analysis of the deposited data

How the results depend on the processing

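Of 267 alternative values of the 19 member fold changes, 240 kept their direction and side of the threshold, 20 lost and 7 gained the call, and 0 changed direction. From ESCs to EpiLCs, array weights called 5 members and 18 other chaperones, and omission of the 3 less repeatable libraries 5 and 15; leaving out single libraries gave 1 member and 3 to 4 others. From EpiLCs to day-4 PGCLCs both settings called 5 members, and single omissions 16 to 20 others. From day-4 PGCLCs to FR10, 1 member was called at a pseudocount of 0.1 RPM, 0 with no filter, 4 members and 15 others with array weights, 5 and 15 without the 3 libraries, and 0 to 1 members and 2 to 3 others in single omissions. CsA in PGCLCs gave 2 members and 6 others with array weights and 2 and 12 without the 3 libraries; FGF10 gave 1 member without them. For FGF2 the other chaperones numbered 1 with no filter, 7 with the filter at 50 RPM, 7 with median-ratio scaling, 0 in the 12 cultured libraries alone, 10 without the 3 libraries and 0 to 9 in single omissions, where members numbered 0 to 1. Single omissions gave 0 to 2 members and 0 to 4 others for CsA in embryo cells, and 0 to 1 others for embryo cells against PGCLCs. The replicate block gave 1 member with CsA in PGCLCs (Hspb1), beside 0.0523% of all tested genes. It gave 9 other chaperones with FGF2, beside 12.2% of all tested genes, and changed no other count by over 1.5 times. The labels give replicate numbers only, so whether same-numbered libraries share a batch is unknown. Differences between replicates correlated at -0.03 to 0.34 over the compared pairs of groups. The highest value was that of E9.5c5 CsA and E9.5c5 FR10. Array weights also called more of all genes from ESCs to EpiLCs (36.3%) and from EpiLCs to day-4 PGCLCs (58.2%). The same held from day-4 PGCLCs to FR10 (29.7%) and with CsA in PGCLCs (4.96%). With FGF2 array weights called fewer, 6.56% against 8.84% in the main fit. Where an omission left 1 library in a group, it was assumed to vary like the others. The cause of these changes was not tested. Low depth limits Hspa1a and Hspa1b, and 2 libraries per group limit all comparisons.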
